A study of Mus musculus with 18 samples.

Results

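The response of Salvador-deficient cardiomyocytes to myocardial infarction was read from 6 of the 18 libraries of the series, as the difference between 3 libraries of Salv cKO mice after infarction and 3 libraries of Salv cKO mice after sham surgery. The members were set by the sample labels, and the response was described across 11393 genes that had enough reads to test, out of 46983 gene symbols counted. All 6 libraries hold TRAP RNA. TRAP, translating ribosome affinity purification, captures the messenger RNA bound to ribosomes of 1 cell type, and here the labels call the captured RNA cardiomyocyte specific. Infarction was made by tying off the left anterior descending coronary artery, RNA was collected 6 weeks after surgery, and the mice were adults of 8 to 10 weeks. Salv cKO stands for a conditional knockout of Salvador, the product of the gene Sav1. By the labels both groups carry this knockout, so that they differ in surgery and not in genotype. The groups used beside them were 3 TRAP libraries of control mice, described as wild type, after infarction and 3 after sham surgery. The labels used here do not name the promoter that drives the recombinase or the ribosome tag, nor the age at deletion. Whether replicates were separate animals is not said, and the error behind each test is the one between libraries, which may be technical.

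Salvador is a scaffold of the Hippo pathway. It holds the upstream MST kinases and helps them activate the LATS kinases, which phosphorylate the coactivators YAP and TAZ and keep them out of the nucleus. In the nucleus YAP works with TEAD factors on genes of growth, cytoskeleton and matrix. In the adult heart cardiomyocytes seldom divide, an infarct heals as a scar, and the surviving muscle is known for natriuretic peptide expression and for lower expression of calcium-handling and oxidative genes.

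The 3 infarction libraries held 7932292, 5901759 and 4335019 counts and the 3 sham libraries 3240871, 3420112 and 4535562, so the sham libraries were on average shallower. Levels below are CPM, a library's counts scaled to a common size, after TMM scaling, which corrects library totals for differences in RNA composition. A level of 3 counts corresponds to between 0.378 and 0.926 CPM of the library totals in these 6 libraries. On the first principal component of the 12 TRAP libraries, which held 32.9% of the variance, the sham Salv cKO libraries lay at 37.6, 58.8 and 57.7. The other 9 libraries lay between -36.6 and 17.9, so that the sham Salv cKO libraries stood apart from the sham control libraries as well as from both infarction groups. Sham replicate 3 held 659 counts of Y-linked genes, against 0 to 3 in the other 5. Mitochondrially encoded transcripts took 0.269 to 0.346% of counts after infarction and 0.383 to 0.532% after sham surgery, and annotated pseudogenes took 0.473 to 0.602% and 0.631 to 1.05%. With counts drawn to equal depth in all libraries 769 to 849 genes passed as higher and 1079 to 1144 as lower, and without the 2 libraries with Y-linked counts 625 and 921, beside the 861 and 1208 given below. The part of the other differences in the results was not tested. All 20 cardiomyocyte markers were detected, and Tnni3, cardiac troponin I, alone was at 24556, 29964 and 29527 CPM after infarction and 43813, 49200 and 51877 CPM after sham surgery. Enrichment of these markers over total heart RNA was not tested here. The summed level of those markers was 163760, 174500 and 150070 CPM after infarction and 212450, 231760 and 217480 CPM after sham surgery, lower in all 3 infarction libraries. The groups overlapped in CPM of the library totals, at 186980, 191580 and 169700 after infarction and 196160, 205320 and 186600 after sham surgery. In such bulk RNA, fewer cells of a type and less RNA per cell cannot be told apart.

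Sav1 itself (chromosome 12, 69965012 to 69987002, - strand; build GRCm38, which is mm10) was at 5.65, 5.73 and 3.48 CPM after infarction and 2.35, 0.993 and 8.76 CPM after sham surgery. The groups overlapped, and its change did not pass the test (log2 fold change 0.25 ± 0.52 (SE), adjusted p = 0.780), with log2 fold changes of -0.19 to 1.58 over the alternatives. In control mice it was at 6.63, 5.70 and 4.32 CPM after infarction and 7.72, 5.51 and 5.70 CPM after sham surgery. The exons of Sav1 overlap those of Atl1. Both Salv cKO groups are labelled as carrying the deletion, so its level is no check of the surgery labels. Its levels also did not separate the Salv cKO libraries from the control libraries. Sham Salv cKO replicate 3, at 8.76 CPM, was above every control library, the highest of which was at 7.72 CPM. The genotype difference in Sav1 was not tested here.

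After infarction 861 genes were higher and 1208 were lower in Salv cKO TRAP RNA (edgeR's quasi-likelihood test, Benjamini-Hochberg adjusted p below 0.05). Of the 11393 genes tested, 18.2% passed, 7.56% as higher and 10.6% as lower. Genes that passed were more abundant, with a median level of 4.46 log2 CPM for higher and 5.70 for lower genes. The median was 3.43 for genes that did not pass. The shares of all genes set beside the gene lists below are not matched for level. The part of level in the shares of a list was not tested. The median log2 fold change was 1.05 among the higher genes and -1.09 among the lower genes, beside 0.02 over all genes tested. More than 2-fold changes were found in 468 higher and 702 lower genes, and more than 4-fold changes in 123 and 105. The 3 libraries of one group lay wholly above those of the other in 839 of the 861 higher and 1156 of the 1208 lower genes, and in 35.6% of all genes tested. The split between directions rests on the composition scaling. With library totals alone, the median of all genes moved up by 0.34 on the log2 scale and 2256 genes were higher (19.8% of those tested) and 630 lower (5.53%), so that 78.2% of calls were higher against 41.6%. All 861 higher genes stayed higher, and 578 of the 1208 lower genes no longer passed. Directions below are therefore relative to the typical gene. Leaving out single Salv cKO libraries gave between 427 and 856 higher and between 673 and 1149 lower genes, with the fewest without infarction replicate 1. Without any one of the 6 Salv cKO libraries, 845 genes passed each time, 286 higher and 559 lower.

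**Figure D1:**
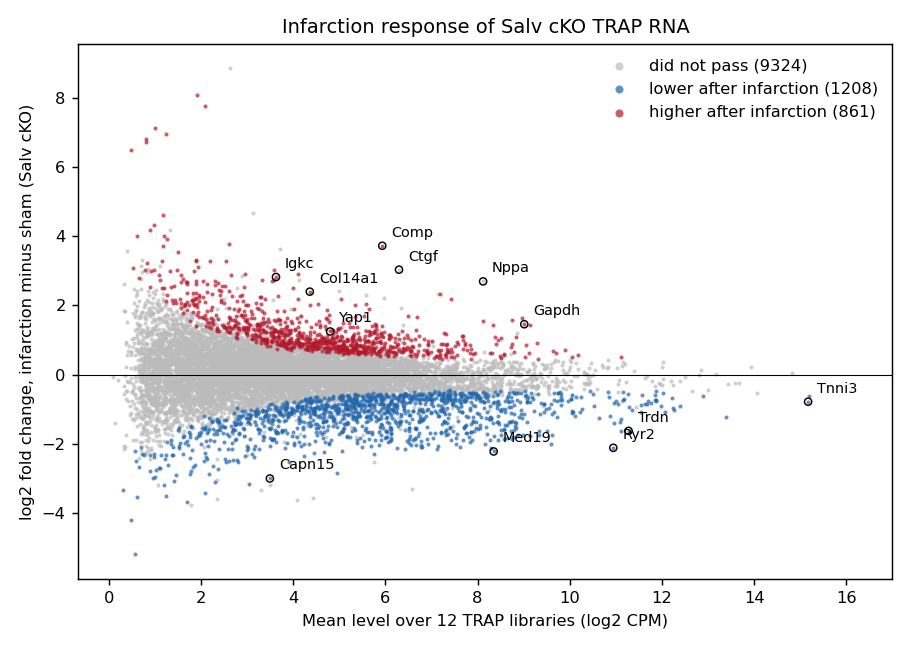
Each point is 1 of 11393 genes, with its mean level over the 12 TRAP libraries (log2 CPM) on the horizontal axis and its log2 fold change, infarction minus sham in Salv cKO mice, on the vertical axis. The 861 genes that passed as higher are red, the 1208 that passed as lower are blue, and circled genes are described in the text, with Ryr2 and Trdn among the abundant genes that were lower and Nppa and Ctgf among those that did not pass.

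Among 34 tested genes of the Hippo pathway 1 rose and 5 fell. These are 2.94% and 14.7% of the list, beside 7.56% and 10.6% of all genes. Among 27 tested YAP target genes 2 rose and none fell. The 2 targets are 7.41% of the list, close to the 7.56% of all genes that rose. With library totals 7 pathway genes were higher and 3 lower, and 3 targets were higher. The gene that rose in the pathway was Yap1, the coactivator that Salvador holds in check, and the targets that rose were Cyr61, a secreted matrix-associated protein, and F3, tissue factor, which starts blood clotting. The 250 bases before the RefSeq start of these 3 genes are printed below, 5′ to 3′ in the direction of transcription (GRCm38.p6), because they were the members of these lists that rose. Capitals mark the hexamer CATTCC or its reverse complement GGAATG, the core of the motif that TEAD factors bind, searched on both strands.
Yap1 (chr9:8004597-8004846, - strand): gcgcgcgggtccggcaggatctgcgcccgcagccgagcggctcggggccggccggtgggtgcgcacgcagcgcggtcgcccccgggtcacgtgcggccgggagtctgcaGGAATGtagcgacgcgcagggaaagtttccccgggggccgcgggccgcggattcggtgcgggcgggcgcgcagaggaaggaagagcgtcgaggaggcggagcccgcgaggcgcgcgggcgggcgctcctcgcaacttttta
Cyr61 (chr3:145649986-145650235, - strand, listed by RefSeq as Ccn1): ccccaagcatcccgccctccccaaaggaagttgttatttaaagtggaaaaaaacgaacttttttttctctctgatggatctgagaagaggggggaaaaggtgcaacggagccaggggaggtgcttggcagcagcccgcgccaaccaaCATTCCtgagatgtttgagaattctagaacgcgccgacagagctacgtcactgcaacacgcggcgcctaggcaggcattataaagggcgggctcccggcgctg
F3 (chr3:121723287-121723536, + strand): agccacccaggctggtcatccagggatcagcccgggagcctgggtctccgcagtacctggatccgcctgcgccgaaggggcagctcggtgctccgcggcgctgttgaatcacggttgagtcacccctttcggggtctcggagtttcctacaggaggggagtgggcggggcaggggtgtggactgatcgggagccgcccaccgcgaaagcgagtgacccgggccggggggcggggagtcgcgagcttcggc
The motif began 103 bases before the start of Cyr61 and 141 bases before that of Yap1, and these letters were not found in the window of F3. Such a match describes the sequence only. Of the 45 tested genes of both lists with a window in the table, 18 held the motif within 300 bases, among them 2 of the 3 that rose, 2 of the 4 that fell (Vgll4 and Wwc2) and 14 of the 38 that did not pass. In the same windows, 250 bases before to 50 after the start, 12.1% of the 687 higher genes with a promoter in the table held the motif, as did 13.9% of 886 lower genes and 12.1% of all 8785 tested genes with one.

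Yap1 (chromosome 9, 7931999 to 8004596, - strand) was at 48.2, 31.7 and 29.3 CPM after infarction and 20.8, 10.3 and 15.2 CPM after sham surgery. Every infarction library was above every sham library, a 2.37-fold difference (log2 fold change 1.25 ± 0.27 (SE), adjusted p = 0.00303). F3 was near the limit of detection after sham surgery, at 4.76, 4.95 and 5.52 CPM after infarction and 1.34, 0.331 and 0.773 CPM after sham surgery, without overlap (log2 fold change 2.61 ± 0.63 (SE), adjusted p = 0.00399). Cyr61 was at 17.5, 11 and 9.0 CPM after infarction and 5.36, 1.99 and 4.64 CPM after sham surgery, also without overlap (log2 fold change 1.65 ± 0.42 (SE), adjusted p = 0.00874), and its adjusted p was 0.0651 without infarction replicate 1. Ctgf, another classical YAP target that encodes a secreted matricellular protein, is described here although its values were seen first. It was at 386, 53.9 and 62 CPM after infarction and 32.8, 9.27 and 19.6 CPM after sham surgery. The groups did not overlap, but infarction replicate 1 lay far above the other infarction libraries, and Ctgf did not pass (log2 fold change 3.03 ± 0.92 (SE), adjusted p = 0.0635, and 0.0421 with library totals). Wwtr1, which encodes TAZ, was likewise picked after its values were seen. It was at 24.3, 22.8 and 24.6 CPM after infarction and 18.1, 13.6 and 11.3 CPM after sham surgery and did not pass (log2 fold change 0.74 ± 0.26 (SE), adjusted p = 0.0512, and 0.00848 with library totals). Ankrd1, a muscle ankyrin repeat protein and YAP target, was at 6400.2, 4132 and 7582 CPM after infarction and 8659.6, 3289.7 and 6968 CPM after sham surgery, with overlapping groups (log2 fold change -0.06 ± 0.40 (SE), adjusted p = 0.934, and a log2 fold change of 0.27 with library totals).

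The 5 pathway genes that fell were Vgll4, Wwc2, Map4k4, Amotl1 and Taok2. Vgll4, which competes with YAP for TEAD factors, was at 7.42, 4.33 and 5.12 CPM after infarction and 14.1, 20.5 and 17.8 CPM after sham surgery (log2 fold change -1.61 ± 0.31 (SE), adjusted p = 0.00133). Its infarction libraries all lay below its sham libraries. Map4k4, a kinase that acts on LATS in parallel to MST, was at 59.7, 52.8 and 69.4 CPM after infarction and 117, 122 and 206 CPM after sham surgery (log2 fold change -1.29 ± 0.20 (SE), adjusted p = 0.000302). Wwc2, a relative of the upstream regulator KIBRA, was at 46.6, 33.8 and 59.8 CPM after infarction and 98.5, 76.1 and 114 CPM after sham surgery (log2 fold change -1.04 ± 0.22 (SE), adjusted p = 0.00272). The log2 fold change of Amotl1, an angiomotin that binds YAP, was -0.64 (adjusted p = 0.00796). That of Taok2, a kinase upstream of MST, was -0.66 (adjusted p = 0.0447). With library totals neither passed (adjusted p = 0.141 for Amotl1 and 0.331 for Taok2), and Taok2 also did not pass without infarction replicate 1 or 2 or sham replicate 2 or 3 (adjusted p up to 0.199). Over the 34 pathway genes the median log2 fold change was -0.01, and 0.33 with library totals. Over the 27 targets it was -0.06, and 0.27 with library totals, so neither list as a whole had a direction that held. Leaving out single Salv cKO libraries left 1 to 3 higher and 4 to 6 lower pathway genes, and 1 or 2 higher targets. With infarction replicate 1 left out, and with sham replicate 3 left out, 1 target passed as lower.

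Genes of cardiac stress and of the fetal program had a median log2 fold change of 0.47 over 24 tested genes, and 0.81 with library totals, and 20 of the 24 were above 0. Of them 4 rose (16.7%) and 2 fell (8.33%), beside 7.56% and 10.6% of all genes. Nppa, atrial natriuretic peptide, was at 551, 199 and 348 CPM after infarction and 69.4, 86.4 and 15.5 CPM after sham surgery. All infarction libraries were above all sham libraries, yet the spread within groups was wide and the 6.47-fold difference did not pass (log2 fold change 2.69 ± 0.81 (SE), adjusted p = 0.0637). Nppb, the related B-type peptide, was at 385, 92.3 and 119 CPM after infarction and 75.7, 25.8 and 19.3 CPM after sham surgery and did not pass (log2 fold change 2.32 ± 0.73 (SE), adjusted p = 0.0690). Both passed with library totals (adjusted p = 0.0429 for Nppa and 0.0464 for Nppb) and with DESeq2. Of 25 alternative fits Nppa passed in 6 and Nppb in 3. Acta1, skeletal alpha-actin, was at 489, 377 and 651 CPM after infarction and 194, 289.9 and 175 CPM after sham surgery (log2 fold change 1.20 ± 0.38 (SE), adjusted p = 0.0536). It passed in 13 of 25 alternative fits, among them DESeq2 and library totals (adjusted p = 0.0362 with library totals). It did not pass when any one Salv cKO library was left out (adjusted p up to 0.166). Myh7, the slow myosin heavy chain, was at 1049, 740.4 and 568 CPM after infarction and 560.3, 619.8 and 602 CPM after sham surgery (log2 fold change 0.40 ± 0.44 (SE), adjusted p = 0.575). Myh6, the fast myosin heavy chain of the adult mouse heart, was at 18802, 16372 and 6254 CPM after infarction and 19870, 15746 and 24557 CPM after sham surgery (log2 fold change -0.54 ± 0.49 (SE), adjusted p = 0.506), with infarction replicate 3 at less than any other of the 6 libraries.

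The stress genes that rose were Xirp1, Fhl1, Rcan1 and Uck2. Rcan1, an inhibitor of calcineurin that calcineurin signalling itself induces, was at 244, 119.8 and 149 CPM after infarction and 73.7, 78.8 and 97.9 CPM after sham surgery, without overlap (log2 fold change 1.03 ± 0.23 (SE), adjusted p = 0.00369). Fhl1, a LIM protein of the sarcomere that takes part in stretch sensing, was at 71.2, 53.4 and 65.1 CPM after infarction and 37.9, 24.5 and 25 CPM after sham surgery (log2 fold change 1.12 ± 0.25 (SE), adjusted p = 0.00379). Xirp1, an actin-binding protein of the intercalated disc, was at 182, 108 and 87.4 CPM after infarction and 58.6, 71.8 and 52.6 CPM after sham surgery (log2 fold change 1.05 ± 0.24 (SE), adjusted p = 0.00573), and had an adjusted p of 0.0569 without infarction replicate 1. Infarction replicate 1 was the highest of the 6 libraries for each of Rcan1, Fhl1 and Xirp1. Uck2 did not pass without infarction replicate 1 (adjusted p = 0.0635). Those that fell were Mt1, a metallothionein, and Myl7, the atrial myosin light chain. Mt1 did not pass without infarction replicate 1 or sham replicate 2 (adjusted p up to 0.125), or with library totals (adjusted p = 0.225). Myl7 was low throughout, at 0.443, 2.01 and 1.64 CPM after infarction and 12.4, 7.28 and 4.89 CPM after sham surgery (log2 fold change -2.62 ± 0.54 (SE), adjusted p = 0.00222). Of 21 tested immediate early genes none passed in either direction by edgeR with all 12 libraries. In this list 1 gene passed as higher without infarction replicate 1.

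**Figure D2:**
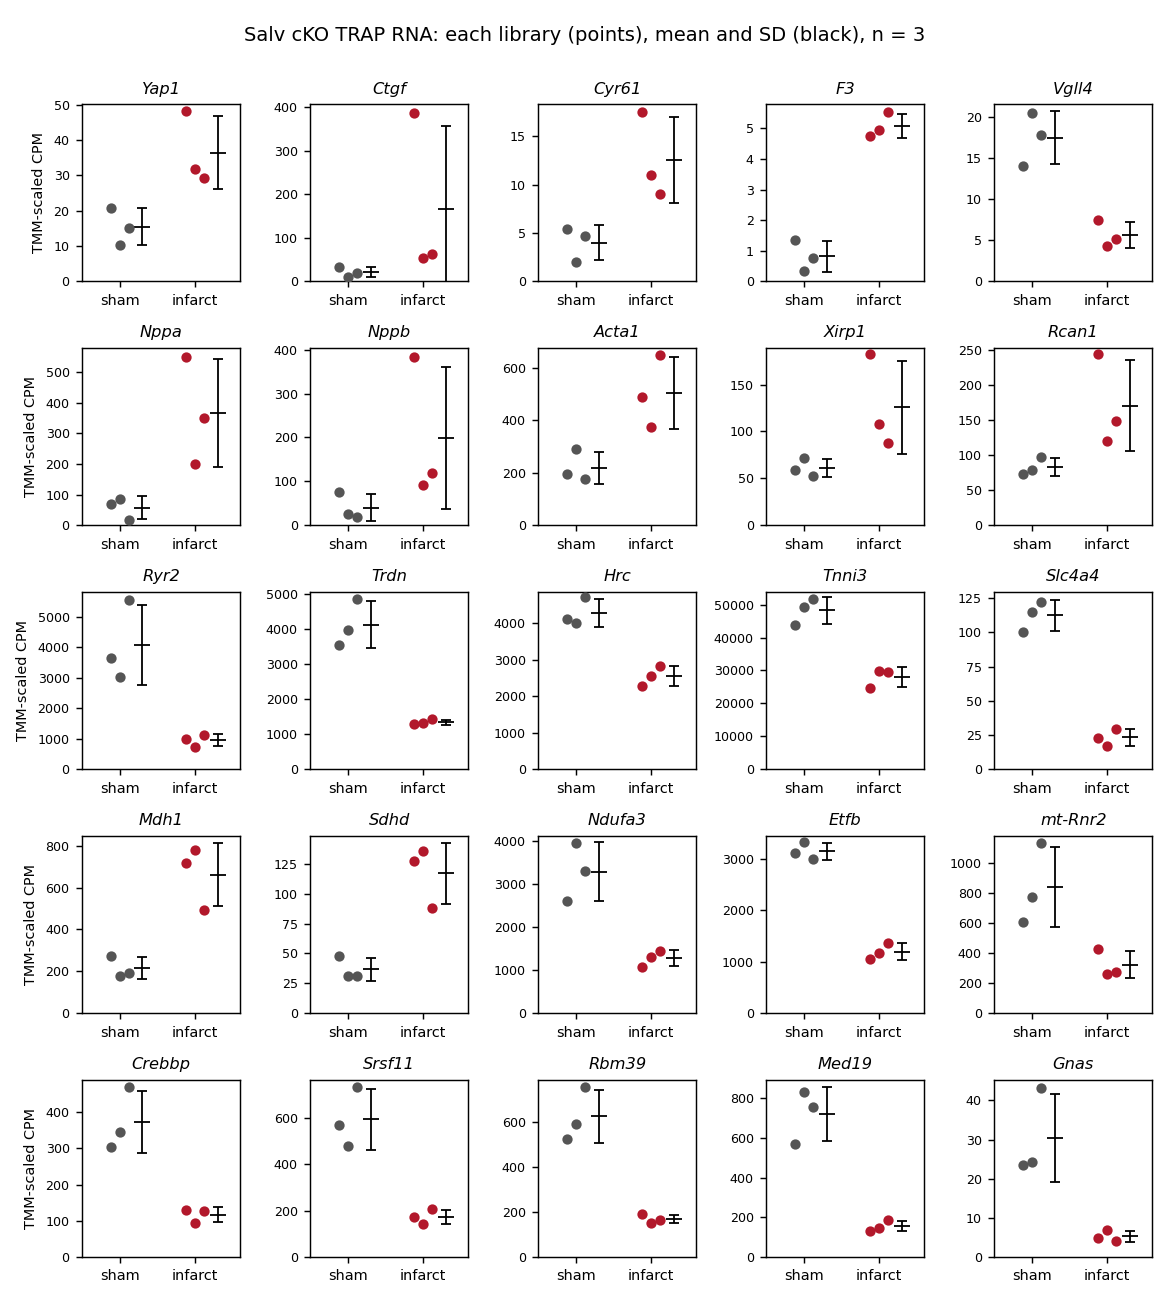
Each panel shows 1 gene in the 6 Salv cKO libraries, with TMM-scaled CPM on a vertical axis that starts at 0, sham libraries in grey and infarction libraries in red, and the mean and SD of 3 libraries beside them in black. The top rows show Yap1, Hippo and stress genes, among which Ctgf and Nppb have infarction replicate 1 far above the rest, and the lower rows show contractile, metabolic and RNA-processing genes, in which the 2 groups do not overlap.

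Contractile and calcium-handling genes moved in both directions. Ryr2 (chromosome 13, 11553102 to 12106945, - strand), the calcium release channel of the sarcoplasmic reticulum, was at 993, 722 and 1101 CPM after infarction and 3630.1, 3027 and 5558 CPM after sham surgery. The lowest sham library was 3027 CPM and the highest infarction library 1101 CPM, a 4.34-fold difference (log2 fold change -2.12 ± 0.34 (SE), adjusted p = 0.00216). Trdn (chromosome 10, 33080554 to 33476709, + strand), triadin, which anchors calsequestrin to that channel, was at 1278, 1309.9 and 1420.1 CPM after infarction and 3552, 3964 and 4872 CPM after sham surgery (log2 fold change -1.63 ± 0.23 (SE), adjusted p = 0.000195). Hrc, a calcium-binding protein of the reticulum lumen that binds triadin, was at 2273, 2566 and 2824 CPM after infarction and 4129, 4022 and 4732 CPM after sham surgery (log2 fold change -0.75 ± 0.17 (SE), adjusted p = 0.00391). These 3 partners at the release site were each lower in all infarction libraries than in any sham library. Pln, phospholamban, the inhibitor of the calcium pump, rose from 1829, 2029 and 1574 CPM in the sham libraries to 2759.6, 2808 and 2102 CPM in the infarction libraries (log2 fold change 0.50 ± 0.16 (SE), adjusted p = 0.0388). Pln did not pass without infarction replicate 1 or 2 or sham replicate 1 or 3 (adjusted p up to 0.168). Rrad, a small G protein that restrains calcium channels, was higher by 0.59 on the log2 scale (adjusted p = 0.016). Rrad did not pass without infarction replicate 2 or 3 or sham replicate 3 (adjusted p up to 0.0635). Atp2a2, the calcium pump SERCA2, was at 10568, 13846 and 12913 CPM after infarction and 15118, 12802 and 15839 CPM after sham surgery and did not pass (log2 fold change -0.23 ± 0.17 (SE), adjusted p = 0.388, and 0.11 with library totals). Of 31 tested calcium-handling genes 2 rose (6.45%) and 4 fell (12.9%), shares close to those of all genes (7.56% and 10.6%). Their median was -0.18 and became 0.16 with library totals, where 5 were higher and 3 lower.

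Of 20 cardiomyocyte markers 3 rose and 8 fell, beside 7.56% and 10.6% of all genes, with a median log2 fold change of -0.28 that became 0.06 with library totals, where 7 were higher and 5 lower. Those that rose were Pln, Myoz2 and Fabp3, and Fabp3 did not pass with its near-identical copy added (adjusted p = 0.997). Leaving out single Salv cKO libraries left 1 to 3 higher and 6 to 8 lower markers. Tnni3, whose levels are given above, fell 1.72-fold (log2 fold change -0.79 ± 0.17 (SE), adjusted p = 0.00328). Ckm, muscle creatine kinase, was at 2044, 2457 and 2083 CPM after infarction and 3619, 5234 and 3165 CPM after sham surgery (log2 fold change -0.87 ± 0.18 (SE), adjusted p = 0.00226). Myl2, the ventricular light chain, fell by less (log2 fold change -0.61 ± 0.15 (SE), adjusted p = 0.00961), and did not pass without infarction replicate 1 or sham replicate 2 (adjusted p up to 0.0687) or with library totals (adjusted p = 0.133). Among sarcomere and Z-disc genes 3 of 40 rose, a share of 7.5% that was close to that of all genes, and 6 fell, while with library totals 17 were higher and 4 lower. Mylk3, the kinase of the ventricular light chain, was at 399, 394 and 346 CPM after infarction and 675, 917 and 911 CPM after sham surgery (log2 fold change -1.14 ± 0.18 (SE), adjusted p = 0.000317). Trim54, a muscle RING-finger protein that binds titin and microtubules, was at 269, 306 and 255 CPM after infarction and 446, 624 and 589 CPM after sham surgery (log2 fold change -1.0 ± 0.17 (SE), adjusted p = 0.000483). Myom2, an M-band protein, rose from 372, 282 and 269 CPM in the sham libraries to 764, 434 and 461 CPM in the infarction libraries (log2 fold change 0.84 ± 0.20 (SE), adjusted p = 0.00608), and did not pass without infarction replicate 1 (adjusted p = 0.0684). The list of sarcomere genes had a median of 0.16, so the low values of Tnni3, Mylk3 and Trim54 were not those of the typical sarcomere gene.

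At the intercalated disc, which joins cardiomyocytes end to end, 6 of 21 tested genes rose and 4 fell. These are 28.6% and 19% of the list, beside 7.56% and 10.6% of all genes. Nrap, which links actin to the disc in growing myofibrils, was at 491, 319 and 304 CPM after infarction and 143, 117 and 118 CPM after sham surgery (log2 fold change 1.56 ± 0.22 (SE), adjusted p = 0.000152). Ctnnb1, beta-catenin, which serves both adherens junctions and Wnt signalling, was at 36.8, 28.8 and 22.7 CPM after infarction and 11.1, 2.65 and 8.24 CPM after sham surgery, a 4.02-fold difference (log2 fold change 2.01 ± 0.33 (SE), adjusted p = 0.000416). Gja1, connexin 43, the main gap junction protein of the ventricle, was higher by 0.94 on the log2 scale (adjusted p = 0.0065). Pkp4, a plakophilin, moved the other way, from 515, 628 and 926 CPM in the sham libraries to 134, 126 and 213 CPM in the infarction libraries (log2 fold change -2.13 ± 0.28 (SE), adjusted p = 0.000284). Mllt4, which encodes afadin, was at 50.3, 37 and 70.6 CPM after infarction and 138, 155 and 165 CPM after sham surgery (log2 fold change -1.54 ± 0.24 (SE), adjusted p = 0.000309). Both were lower in every infarction library than in any sham library. In the dystrophin complex and costamere list 2 of 33 rose and 4 fell, shares close to those of all genes (7.56% and 10.6%), and with library totals 9 were higher and 2 lower. Dag1, dystroglycan, was at 220.0, 267 and 234 CPM after infarction and 135, 98.3 and 124 CPM after sham surgery (log2 fold change 1.01 ± 0.18 (SE), adjusted p = 0.000753). Ank2, ankyrin B, which places ion transporters, was at 220.4, 209.6 and 224 CPM after infarction and 445, 490.4 and 461 CPM after sham surgery (log2 fold change -1.09 ± 0.20 (SE), adjusted p = 0.00109), and Fermt2, kindlin 2, which activates integrins, was at 149, 145 and 239 CPM after infarction and 378, 289 and 497 CPM after sham surgery (log2 fold change -1.13 ± 0.21 (SE), adjusted p = 0.00131).

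Among 34 ion channel and connexin genes 3 rose and 6 fell, beside 7.56% and 10.6% of all genes, and with library totals 11 were higher and 3 lower. Kcnk3, a background potassium channel, was at 1406, 1264 and 1309 CPM after infarction and 2355, 3466 and 3347 CPM after sham surgery (log2 fold change -1.20 ± 0.20 (SE), adjusted p = 0.000555). Kcnip2, the subunit that supports the transient outward current, rose from 94.2, 104 and 73.9 CPM in the sham libraries to 138, 155 and 147 CPM in the infarction libraries (log2 fold change 0.70 ± 0.17 (SE), adjusted p = 0.00650). The highest sham library of Kcnip2 was below its lowest infarction library. Slc4a4, a sodium bicarbonate cotransporter outside this list and one of the genes with the lowest log2 fold change, was at 22.8, 17.2 and 29.7 CPM after infarction and 100.2, 115 and 123 CPM after sham surgery, a 4.87-fold difference (log2 fold change -2.28 ± 0.23 (SE), adjusted p = 2.52e-05).

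Adrenergic and cyclic AMP genes were lower in 7 of 32 tested (21.9%) and higher in 2 (6.25%), beside 10.6% and 7.56% of all genes. Their median was -0.22 and became 0.12 with library totals, where 6 were lower and 7 higher. Gnas (chromosome 2, 174284320 to 174346744, + strand), the stimulatory G protein subunit that couples beta-adrenergic receptors to adenylyl cyclase, was at 4.76, 6.81 and 4.09 CPM after infarction and 23.5, 24.2 and 43.3 CPM after sham surgery, a 5.79-fold difference (log2 fold change -2.53 ± 0.34 (SE), adjusted p = 8.07e-05). Adcy9, an adenylyl cyclase, was at 18.8, 21.2 and 19 CPM after infarction and 40.2, 88 and 53.8 CPM after sham surgery (log2 fold change -1.62 ± 0.26 (SE), adjusted p = 0.000407). Prkar2a, a regulatory subunit of protein kinase A, was at 233, 257 and 285 CPM after infarction and 511, 764 and 718 CPM after sham surgery (log2 fold change -1.36 ± 0.21 (SE), adjusted p = 0.000244). Rgs4, which ends G protein signalling, was at 7.98, 9.75 and 11.9 CPM after infarction and 27.5, 29.1 and 46.4 CPM after sham surgery (log2 fold change -1.82 ± 0.26 (SE), adjusted p = 0.000140). In all 4 genes each infarction library lay below each sham library. The 2 that rose were the major cardiac cyclases Adcy5 (log2 fold change 0.66, adjusted p = 0.0103) and Adcy6 (0.86, adjusted p = 0.0291). Adcy6 did not pass without infarction replicate 1 or 2 or sham replicate 2 or 3 (adjusted p up to 0.125).

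Genes of energy metabolism passed in both directions. In the TCA cycle 8 of 29 rose and 1 fell (27.6% and 3.45%, beside 7.56% and 10.6% of all genes). The median was 0.28, and 0.62 with library totals. Mdh1, a malate dehydrogenase that works in the cytosolic arm of the malate shuttle, was at 716, 781 and 492 CPM after infarction and 274, 179 and 189 CPM after sham surgery (log2 fold change 1.63 ± 0.23 (SE), adjusted p = 0.000187). Sdhd, a membrane anchor of succinate dehydrogenase, was at 128, 136 and 88.2 CPM after infarction and 47.6, 31.1 and 31.2 CPM after sham surgery (log2 fold change 1.68 ± 0.27 (SE), adjusted p = 0.000519). Suclg2, a succinyl-CoA ligase subunit, was at 80.8, 71.7 and 74.1 CPM after infarction and 34.9, 36.4 and 29.6 CPM after sham surgery (log2 fold change 1.17 ± 0.19 (SE), adjusted p = 0.000376). The groups did not overlap in any of these 3. Leaving out single Salv cKO libraries gave 5 to 8 higher TCA cycle genes.

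Of 47 glycolysis, glycogen and pyruvate genes 6 rose (12.8%) and 5 fell (10.6%), with a median of 0.17. Of all genes 7.56% rose and 10.6% fell, so the lower share was that of all genes. Gapdh was at 710.0, 673 and 562 CPM after infarction and 280.5, 196 and 233 CPM after sham surgery (log2 fold change 1.46 ± 0.17 (SE), adjusted p = 4.47e-05). It has 79 near-identical copies in the genome, and the log2 fold change was 1.42 when the counts of copies were added. Such sums, here and below, may lack reads with several matches, whose handling is not said. Eno1, enolase 1, was at 85.6, 52 and 39.5 CPM after infarction and 17.1, 14.9 and 12.4 CPM after sham surgery (log2 fold change 2.01 ± 0.27 (SE), adjusted p = 9.12e-05). Pgk1, phosphoglycerate kinase, was at 73.4, 79.1 and 79.2 CPM after infarction and 27.8, 18.5 and 16.7 CPM after sham surgery (log2 fold change 1.88 ± 0.23 (SE), adjusted p = 4.91e-05), but 0.79 with its copies added (adjusted p = 0.00876). Pgam2, the muscle phosphoglycerate mutase, fell from 4499, 3983 and 4746 CPM in the sham libraries to 1777, 1803 and 2652 CPM in the infarction libraries (log2 fold change -1.09 ± 0.16 (SE), adjusted p = 0.000200). All 3 sham libraries of Pgam2 were above all 3 infarction libraries, the reverse of the order for Gapdh, Eno1 and Pgk1.

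Fatty acid uptake and oxidation had 7 higher and 7 lower of 53, 13.2% each, beside 7.56% and 10.6% of all genes. The median was -0.08 and became 0.25 with library totals. Etfb, a subunit of the electron transfer flavoprotein that takes electrons from fatty acid oxidation, was at 1051, 1174 and 1368 CPM after infarction and 3128, 3335 and 3002 CPM after sham surgery (log2 fold change -1.40 ± 0.20 (SE), adjusted p = 0.000135), a 2.63-fold difference. Its partner subunit Etfa passed in the other direction (log2 fold change 0.88, adjusted p = 0.00656). Ppargc1b, a coactivator of mitochondrial genes, was at 105, 111 and 148 CPM after infarction and 286, 296 and 558 CPM after sham surgery (log2 fold change -1.65 ± 0.24 (SE), adjusted p = 0.000314). Esrra, a nuclear receptor that works with that coactivator family and whose exons overlap Trmt112, was at 81.2, 63.8 and 56.9 CPM after infarction and 33.8, 21.8 and 28.6 CPM after sham surgery (log2 fold change 1.26 ± 0.22 (SE), adjusted p = 0.000750). Acadm, medium-chain acyl-CoA dehydrogenase, was at 509.9, 558 and 379 CPM after infarction and 257, 179 and 254 CPM after sham surgery (log2 fold change 1.07 ± 0.20 (SE), adjusted p = 0.00114). Fabp3, the heart fatty acid binding protein, rose when counted alone (log2 fold change 1.45 ± 0.28 (SE), adjusted p = 0.00328), and its log2 fold change was 0.0020 when the counts of its near-identical copy were added (adjusted p = 0.997). Whether the rise comes from reads divided between the 2 loci was not tested.

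Respiratory complex I, the entry point of NADH into the respiratory chain, had 15 lower and 5 higher of 41 nuclear genes tested, beside 10.6% and 7.56% of all genes. The median was -0.32, and 0.02 with library totals, where 8 were lower and 8 higher. Ndufa3 was at 1073, 1306 and 1432 CPM after infarction and 2598, 3958 and 3307 CPM after sham surgery (log2 fold change -1.37 ± 0.17 (SE), adjusted p = 4.93e-05), and Ndufa2 was at 2600, 2659 and 3066 CPM after infarction and 5190, 5893 and 6606 CPM after sham surgery (log2 fold change -1.09 ± 0.16 (SE), adjusted p = 0.000152). Both are accessory subunits, and both groups of each were apart. Ndufb2 fell by 1.08 on the log2 scale and Ndufs6 by 0.95. Without infarction replicate 1 the number of lower complex I genes was 8. Nuclear genes of complexes II to V had 10 higher and 11 lower of 50, with a median of -0.09 that became 0.24 with library totals, where 17 were higher and 4 lower. Within cytochrome c oxidase the directions were opposite. Cox5a, a core-associated subunit, was at 218, 194 and 158 CPM after infarction and 54.3, 19.5 and 39.7 CPM after sham surgery, a 5.03-fold difference (log2 fold change 2.33 ± 0.41 (SE), adjusted p = 0.00392). Cox8b, a muscle isoform, was at 2800.3, 3341 and 3594 CPM after infarction and 5591, 7020.2 and 6504 CPM after sham surgery (log2 fold change -0.97 ± 0.16 (SE), adjusted p = 0.000328), and did not pass with offsets for gene length and GC content. Atp5o, a stalk subunit of ATP synthase, was at 3513, 4031 and 4442 CPM after infarction and 6816, 6754 and 8852 CPM after sham surgery (log2 fold change -0.90 ± 0.19 (SE), adjusted p = 0.00294), and Uqcrq of complex III fell by 0.73 (adjusted p = 0.00292). Without infarction replicate 1 the list had 3 higher and 4 lower genes.

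Transcripts of the mitochondrial genome had the lowest median of the lists with at least 10 tested genes, -0.65, or -0.31 with library totals, and 6 of 10 fell and none rose. The ribosomal RNA mt-Rnr1 was at 221, 256 and 213 CPM after infarction and 486, 655 and 654 CPM after sham surgery (log2 fold change -1.38 ± 0.22 (SE), adjusted p = 0.000354). The large ribosomal RNA mt-Rnr2 was at 424, 262 and 274 CPM after infarction and 608, 772 and 1131 CPM after sham surgery (log2 fold change -1.39 ± 0.28 (SE), adjusted p = 0.00426). Both kept passing when any one Salv cKO library was left out. The messenger mt-Nd1 fell too (log2 fold change -0.83 ± 0.24 (SE), adjusted p = 0.0219), but not with library totals (adjusted p = 0.0862), nor without infarction replicate 1 or 3 or sham replicate 2 (adjusted p up to 0.0915). The list had 2 lower genes with library totals, without infarction replicate 3 and without sham replicate 2, and 7 without sham replicate 1. These transcripts are made and translated inside mitochondria, not on the cytosolic ribosomes that TRAP captures. Of 42 genes of mitochondrial dynamics, mitophagy and quality control 4 rose (9.52%) and none fell, beside 7.56% and 10.6% of all genes. Afg3l2, an inner-membrane protease, was at 138, 125 and 129.9 CPM after infarction and 85.5, 66.8 and 65.2 CPM after sham surgery (log2 fold change 0.85 ± 0.19 (SE), adjusted p = 0.00345). Park2, which encodes parkin, the ligase that marks damaged mitochondria, was at 15.6, 12.8 and 19 CPM after infarction and 25.1, 27.1 and 27.6 CPM after sham surgery. Its groups did not overlap, and it did not pass (log2 fold change -0.75 ± 0.29 (SE), adjusted p = 0.0721).

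**Figure D3:**
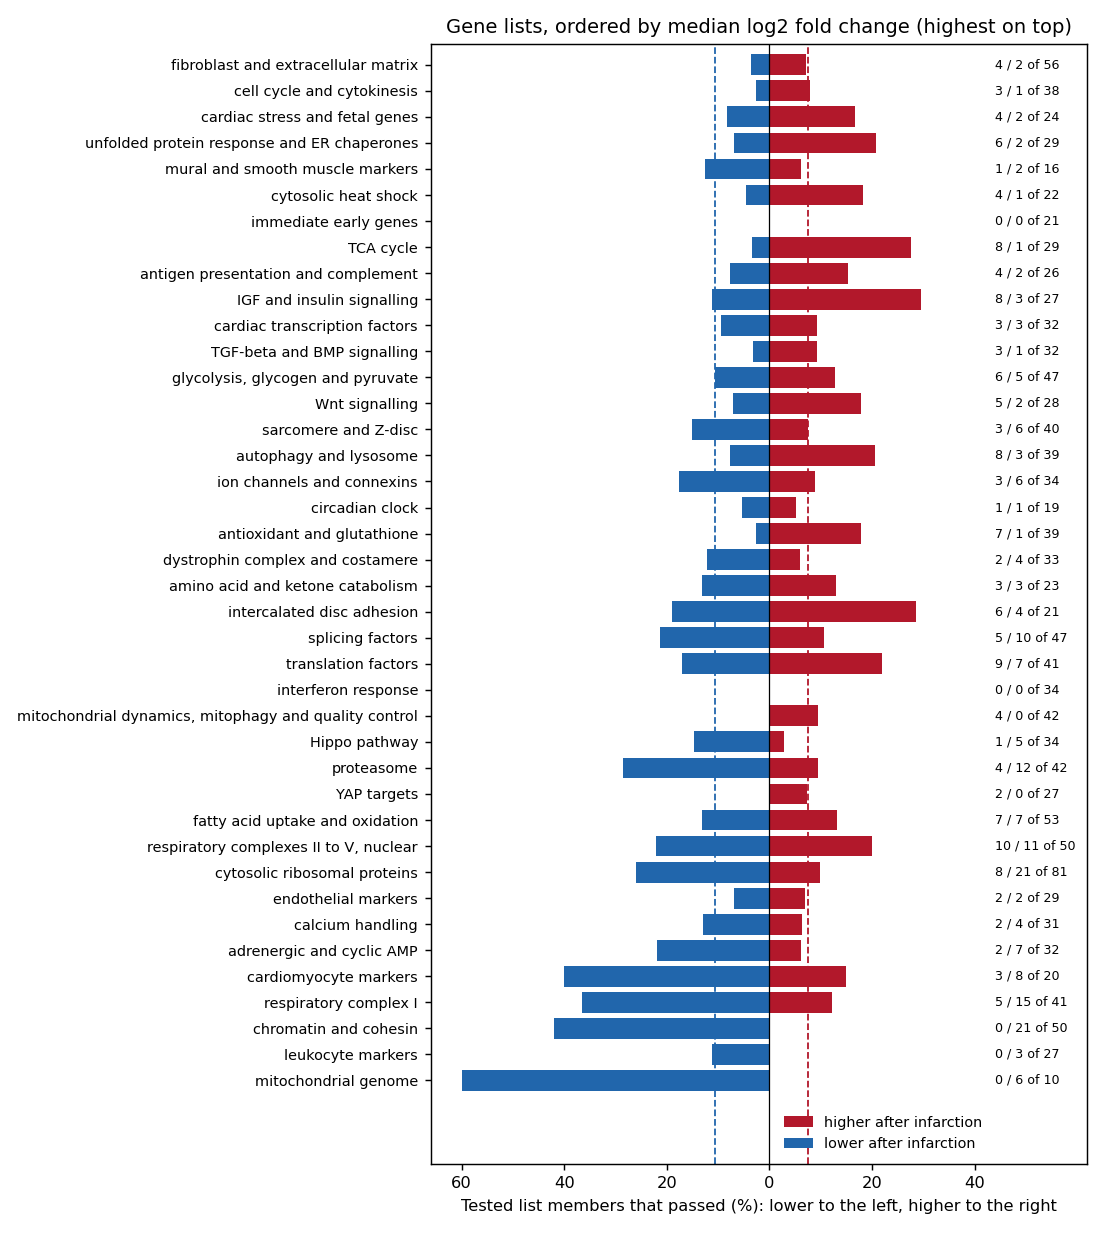
For each of 40 gene lists with at least 10 tested members, the bars show the percent of tested members that passed as higher (red, to the right) and as lower (blue, to the left), with the numbers at the right as higher / lower of tested and the lists ordered by their median log2 fold change. Dashed lines mark the shares among all genes tested, 7.56% higher and 10.6% lower, and the longest bars to the left belong to the mitochondrial genome (6 of 10) and to chromatin and cohesin (21 of 50).

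Regulators of chromatin were lower in 21 of 50 tested (42%) and higher in none, beside 10.6% and 7.56% of all genes. Their median was -0.51, and -0.17 with library totals, where 16 were lower and 4 higher. Crebbp, a histone acetyltransferase, was at 129, 92.3 and 126 CPM after infarction and 305, 345 and 471 CPM after sham surgery (log2 fold change -1.69 ± 0.26 (SE), adjusted p = 0.000473). Kmt2c, a histone H3 lysine methyltransferase, was at 47.1, 37.9 and 69.6 CPM after infarction and 156, 139 and 185 CPM after sham surgery (log2 fold change -1.64 ± 0.24 (SE), adjusted p = 0.000244). Nipbl, the loader of cohesin on DNA, was at 47.3, 34.1 and 74.5 CPM after infarction and 139, 144 and 171 CPM after sham surgery (log2 fold change -1.55 ± 0.24 (SE), adjusted p = 0.000308). In each of these 3 the sham libraries were all above the infarction libraries. Leaving out single Salv cKO libraries left 13 to 21 lower genes of this list. In control mice the median of the same genes was -0.46.

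Splicing factors included 5 higher (10.6%) and 10 lower (21.3%) genes of 47, beside 7.56% and 10.6% of all genes. Their median was 0.07, and 11 were higher and 8 lower with library totals. Those that fell included serine- and arginine-rich proteins of nuclear speckles. Srsf11 was at 171, 144 and 205 CPM after infarction and 567, 478 and 734 CPM after sham surgery (log2 fold change -1.78 ± 0.24 (SE), adjusted p = 0.000140). Rbm39, a coactivator and splicing factor, was at 189.8, 152 and 165 CPM after infarction and 527, 595 and 759 CPM after sham surgery (log2 fold change -1.89 ± 0.27 (SE), adjusted p = 0.000428). Son, a scaffold of speckles, was at 274, 299 and 286 CPM after infarction and 568, 809 and 781 CPM after sham surgery (log2 fold change -1.33 ± 0.18 (SE), adjusted p = 0.000101), and Srrm2, its partner scaffold, was at 120.2, 95.7 and 168 CPM after infarction and 345, 306 and 383 CPM after sham surgery (log2 fold change -1.43 ± 0.19 (SE), adjusted p = 7.48e-05). The exons of Srrm2 overlap those of Tceb2. The 5 that rose were Hnrnpa1, Hnrnpa3, Hnrnph1, Rbm20 and Prpf8, of which Rbm20 controls splicing of titin in the heart. Hnrnpa3 did not pass without infarction replicate 1 or sham replicate 2 or 3 (adjusted p up to 0.174), nor Rbm20 without infarction replicate 1 or 2 or sham replicate 2 or 3 (adjusted p up to 0.0827). Med19, a subunit of Mediator, which links transcription factors to RNA polymerase, was among the genes with the lowest log2 fold change. It was at 133, 147 and 184 CPM after infarction and 569, 835 and 758 CPM after sham surgery, a 4.67-fold difference (log2 fold change -2.22 ± 0.25 (SE), adjusted p = 4.93e-05), and its exons overlap those of Tmx2.

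Genes of translation and protein breakdown passed in both directions. Of 41 translation factors 9 rose (22%) and 7 fell (17.1%), beside 7.56% and 10.6% of all genes. Eef1a1, the main elongation factor, was at 243, 222 and 221 CPM after infarction and 55.6, 57.6 and 37.9 CPM after sham surgery, a 4.56-fold difference (log2 fold change 2.19 ± 0.38 (SE), adjusted p = 0.00334), and 2.20 with its near-identical copies added. Eif4a2, an RNA helicase of initiation, was at 43.8, 50.8 and 36 CPM after infarction and 16.8, 11.6 and 11.6 CPM after sham surgery (log2 fold change 1.72 ± 0.25 (SE), adjusted p = 0.000140). Eif5, which triggers GTP hydrolysis at the start codon, moved the other way, from 832, 611 and 1027 CPM in the sham libraries to 236, 174 and 332 CPM in the infarction libraries (log2 fold change -1.74 ± 0.24 (SE), adjusted p = 0.000166). Eif2s2, a subunit of the factor that brings the initiator tRNA, was at 337, 304 and 412 CPM after infarction and 1068, 715 and 1460.4 CPM after sham surgery (log2 fold change -1.62 ± 0.26 (SE), adjusted p = 0.000720). Proteasome subunits were lower in 12 of 42 and higher in 4, with a median of -0.05 that became 0.29 with library totals, where 6 were lower and 12 higher, beside 10.6% lower and 7.56% higher of all genes in the scaled values. Psma7 was at 179, 161 and 273 CPM after infarction and 629, 432 and 791 CPM after sham surgery (log2 fold change -1.60 ± 0.25 (SE), adjusted p = 0.000516), Psmd1 was lower by a log2 fold change of -1.38, and Psmd7 by -1.41. Ribosomal protein genes were lower in 21 of 81 and higher in 8, with a median of -0.15 that became 0.18 with library totals, where 11 were lower and 25 higher. Rps21 was at 1192, 1280.2 and 1832 CPM after infarction and 3237, 3819.5 and 3347 CPM after sham surgery (log2 fold change -1.27 ± 0.19 (SE), adjusted p = 0.000221), and Rpl36 was at 603, 604 and 782 CPM after infarction and 1331, 1467 and 1744 CPM after sham surgery (log2 fold change -1.19 ± 0.17 (SE), adjusted p = 0.000158). Rpl10 rose by 1.65 on the log2 scale alone, and by 0.57 with its near-identical copies added (adjusted p = 0.0445).

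Among genes of cell protection more passed as higher than as lower. Of 39 antioxidant and glutathione genes 7 rose and 1 fell, beside 7.56% and 10.6% of all genes, with a median of 0.13. Gpx4, which removes lipid peroxides, was at 465, 429 and 288 CPM after infarction and 138, 121 and 176 CPM after sham surgery (log2 fold change 1.44 ± 0.21 (SE), adjusted p = 0.000147). Gstp1, a glutathione transferase, was at 43, 45.1 and 27 CPM after infarction and 10.1, 12.9 and 18 CPM after sham surgery (log2 fold change 1.48 ± 0.27 (SE), adjusted p = 0.000887). Among cytosolic heat shock genes 4 of 22 rose and 1 fell. Hspb1, a small heat shock protein, was at 81.2, 73.4 and 62.2 CPM after infarction and 33.8, 34.4 and 34.3 CPM after sham surgery (log2 fold change 1.08 ± 0.19 (SE), adjusted p = 0.000778), and Hsp90aa1, an inducible chaperone, fell from 1029, 954 and 1890.4 CPM in the sham libraries to 578, 425 and 636 CPM in the infarction libraries (log2 fold change -1.24 ± 0.28 (SE), adjusted p = 0.00924). Of 29 genes of the unfolded protein response and of endoplasmic reticulum chaperones 6 rose and 2 fell, with a median of 0.37. Creld2, a stress-induced disulfide isomerase, was at 29.5, 24 and 23.9 CPM after infarction and 13.1, 8.94 and 13.1 CPM after sham surgery (log2 fold change 1.14 ± 0.23 (SE), adjusted p = 0.00163). Hsp90b1, the reticulum member of the HSP90 family, was at 239.7, 207 and 218 CPM after infarction and 421, 361 and 593 CPM after sham surgery (log2 fold change -1.05 ± 0.24 (SE), adjusted p = 0.00649). Of 39 autophagy and lysosome genes 8 rose and 3 fell, among them Nbr1, a cargo receptor (log2 fold change 0.96, adjusted p = 0.00404), and Ulk1, the initiating kinase (0.73, adjusted p = 0.00782). Without single Salv cKO libraries the numbers of higher genes fell to as few as 3 antioxidant, 2 heat shock, 3 unfolded protein response and 4 autophagy genes.

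In the list of insulin and insulin-like growth factor signalling 8 of 27 genes rose and 3 fell, in that of Wnt 5 of 28 rose and 2 fell, and in that of TGF-beta and BMP 3 of 32 rose and 1 fell, beside 7.56% and 10.6% of all genes. Without infarction replicate 1 the higher genes numbered 4, 2 and 1 in these lists, and without sham replicate 3 they numbered 4, 2 and 0. Igfbp3, a binding protein of insulin-like growth factors, was at 33.8, 36.8 and 32.9 CPM after infarction and 17.4, 12.9 and 6.44 CPM after sham surgery (log2 fold change 1.51 ± 0.29 (SE), adjusted p = 0.00138), while Igfbp5 fell from 107, 136 and 126 CPM in the sham libraries to 61, 58.1 and 60.4 CPM in the infarction libraries (log2 fold change -1.04 ± 0.20 (SE), adjusted p = 0.00166). Gsk3b, the kinase that restrains beta-catenin and glycogen synthesis and stands in both lists, was at 29.5, 29.6 and 53.8 CPM after infarction and 101.2, 80.4 and 159 CPM after sham surgery (log2 fold change -1.60 ± 0.30 (SE), adjusted p = 0.00196). Tcf7l2, a nuclear partner of beta-catenin, was at 20.6, 15.8 and 25.6 CPM after infarction and 61.7, 76.4 and 105 CPM after sham surgery (log2 fold change -1.98 ± 0.25 (SE), adjusted p = 5.34e-05). In the TGF-beta and BMP list Acvr2b, an activin receptor, fell by 1.67 on the log2 scale (adjusted p = 0.000416), the 1 gene of its list that fell. Mef2c, a transcription factor of the heart muscle program, was at 113, 116 and 142 CPM after infarction and 326, 299.8 and 453 CPM after sham surgery (log2 fold change -1.54 ± 0.23 (SE), adjusted p = 0.000230). Cell cycle genes had a median of 0.61, and 3 of 38 rose and 1 fell, the former close to the share among all genes. The median was 0.32 without infarction replicate 1, 0.32 without infarction replicate 3 and 0.26 without sham replicate 3. Their levels were low: Rrm1, a subunit of ribonucleotide reductase, was at 20.3, 20.7 and 12.5 CPM after infarction and 7.04, 8.60 and 6.96 CPM after sham surgery (log2 fold change 1.25 ± 0.29 (SE), adjusted p = 0.00453). Mcm2, a replication helicase subunit, was at 7.98, 5.73 and 7.37 CPM after infarction and 1.68, 1.99 and 2.83 CPM after sham surgery (log2 fold change 1.67 ± 0.56 (SE), adjusted p = 0.0394) and did not pass when any one Salv cKO library was left out (adjusted p up to 0.123). Pcna, the replication clamp, had an adjusted p of 0.0374 alone and 0.109 with its near-identical copy added.

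The list of fibroblast and extracellular matrix genes had the highest median of the lists with at least 10 tested genes, 0.65 over 56 genes and 0.98 with library totals, and 48 of 56 were above 0. Of them 4 passed as higher and 2 as lower, and the higher share was close to that of all genes. Comp (chromosome 8, 70373558 to 70382066, + strand), cartilage oligomeric matrix protein, was at 111, 61.3 and 121 CPM after infarction and 1.34, 15.9 and 5.15 CPM after sham surgery, a 13.2-fold difference and the highest of the genes named (log2 fold change 3.72 ± 0.90 (SE), adjusted p = 0.0240). It did not pass without infarction replicate 1 or 3 or without sham replicate 1 or 3 (adjusted p up to 0.0958). Col14a1, a fibril-associated collagen, was at 34.2, 23.7 and 28.9 CPM after infarction and 7.37, 6.62 and 2.83 CPM after sham surgery (log2 fold change 2.40 ± 0.39 (SE), adjusted p = 0.000516), and kept passing when any one library was left out. Lum, lumican, was at 115, 103 and 154 CPM after infarction and 79.1, 71.8 and 46.4 CPM after sham surgery (log2 fold change 0.92 ± 0.26 (SE), adjusted p = 0.0228), with an adjusted p of up to 0.101 when single Salv cKO libraries were left out. The 2 that fell were Loxl2 and S100a4. Loxl2, a lysyl oxidase relative that cross-links collagen, was at 11.5, 13 and 19.4 CPM after infarction and 31.2, 48.3 and 37.9 CPM after sham surgery (log2 fold change -1.43 ± 0.27 (SE), adjusted p = 0.00109), and also kept passing when any one library was left out. S100a4, a calcium-binding protein of fibroblasts and leukocytes, fell (log2 fold change -1.51 ± 0.41 (SE), adjusted p = 0.0137), and did not pass without infarction replicate 1 or sham replicate 2 (adjusted p up to 0.0805). Of the whole list 13 of 56 were higher with library totals. Without sham replicate 3 the number was 2 of 59, without infarction replicate 1 it was 1 of 57, and without both sham replicate 3 and the 1 sham control library with counts of Y-linked genes it was 18 of 59. The summed level of the list was 7135, 5354 and 7000.3 CPM after infarction and 5370.1, 5388 and 4812 CPM after sham surgery, so that infarction replicate 2 lay among the sham libraries. In CPM of the library totals the 3 infarction libraries were above the 3 sham libraries.

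Markers of other cell types were present at lower levels. Leukocyte markers summed to 365, 357 and 614 CPM after infarction and 728, 875 and 842 CPM after sham surgery. Of 27 tested 3 fell and none rose, and the lower share of 11.1% was close to the 10.6% of all genes. Ccl6, a chemokine of myeloid cells, was at 13.2, 8.82 and 8.18 CPM after infarction and 38.2, 29.8 and 22.7 CPM after sham surgery (log2 fold change -1.56 ± 0.26 (SE), adjusted p = 0.000476), and Pf4, platelet factor 4, was at 17.8, 18.1 and 19.2 CPM after infarction and 38.2, 39.7 and 38.4 CPM after sham surgery (log2 fold change -1.08 ± 0.19 (SE), adjusted p = 0.000753). Without infarction replicate 3 the number of lower leukocyte markers was 10 of 30. Endothelial markers summed to between 1069 and 1319 CPM after infarction and between 1435 and 1705 CPM after sham surgery, with 2 of 29 higher and 2 lower. Each is 6.9% of the list, beside 7.56% higher and 10.6% lower of all genes. In CPM of the library totals the infarction and sham groups overlapped for both lists. Flt1, a VEGF receptor, was at 165, 161 and 209.7 CPM after infarction and 351, 397 and 516 CPM after sham surgery (log2 fold change -1.24 ± 0.20 (SE), adjusted p = 0.000314). Lyve1, a hyaluronan receptor of lymphatic endothelium and of some macrophages, fell too (log2 fold change -1.35 ± 0.37 (SE), adjusted p = 0.0167), but not without infarction replicate 1 or 2 or sham replicate 1 or 3 (adjusted p up to 0.0821). The 2 that rose were Plvap and Robo4. Plvap, a protein of endothelial pores and caveolae, was at 13.5, 9.91 and 6.96 CPM after infarction and 3.69, 2.65 and 3.86 CPM after sham surgery (log2 fold change 1.58 ± 0.39 (SE), adjusted p = 0.00701), with an adjusted p of 0.0521 without infarction replicate 1. Robo4, an endothelial guidance receptor, rose as well (log2 fold change 1.08 ± 0.37 (SE), adjusted p = 0.0450), and passed in 1 of the 6 fits that left out a Salv cKO library (adjusted p up to 0.197). Igkc, the immunoglobulin kappa constant region made by B-lineage cells, rose from 1.34, 2.32 and 1.03 CPM in the sham libraries to 16.2, 8.36 and 7.78 CPM in the infarction libraries (log2 fold change 2.82 ± 0.74 (SE), adjusted p = 0.0116), and did not pass without sham replicate 3 (adjusted p = 0.0738). The part of these cell types in the changes above was not tested. Of 34 interferon response genes none passed in either direction by edgeR.

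Among genes of at least 3 log2 CPM on average whose groups did not overlap, those with the highest log2 fold change included Comp, Igkc, Col14a1, Cox5a and Eef1a1, described above. Ppia, cyclophilin A, was at 24, 20.6 and 14.1 CPM after infarction and 4.02, 0.331 and 3.35 CPM after sham surgery, a 7.51-fold difference (log2 fold change 2.91 ± 0.44 (SE), adjusted p = 0.000147), and 2.95 on the log2 scale with its near-identical copies added. Sham replicate 2 of Ppia lay below the level of 3 counts. Whether reads with several matches were counted is not said, so the sum with copies may lack some. Ube2s, a ubiquitin-conjugating enzyme of the anaphase-promoting complex whose exons overlap Rpl28, was at 17.6, 21.4 and 11.9 CPM after infarction and 1.68, 4.96 and 1.29 CPM after sham surgery (log2 fold change 2.72 ± 0.47 (SE), adjusted p = 0.000447). Ppp1ca, a catalytic subunit of protein phosphatase 1, was at 21.5, 19 and 12.3 CPM after infarction and 6.03, 0 and 2.06 CPM after sham surgery, with none counted in sham replicate 2 (log2 fold change 2.73 ± 0.60 (SE), adjusted p = 0.00483). Endog, a mitochondrial endonuclease whose exons overlap D2Wsu81e, was at 13.6, 15.2 and 12.1 CPM after infarction and 3.35, 1.32 and 3.86 CPM after sham surgery (log2 fold change 2.23 ± 0.37 (SE), adjusted p = 0.000314). Capn15 (chromosome 17, 25958364 to 25985796, - strand), a calpain-family protease, had the lowest log2 fold change of the genes named, at 3.10, 4.49 and 2.86 CPM after infarction and 20.4, 24.5 and 39.2 CPM after sham surgery, an 8.02-fold difference (log2 fold change -3.0 ± 0.37 (SE), adjusted p = 4.91e-05). Atxn7, a subunit of the SAGA acetyltransferase complex, was at 16.7, 16.6 and 11.1 CPM after infarction and 47.6, 79.1 and 78.1 CPM after sham surgery (log2 fold change -2.20 ± 0.25 (SE), adjusted p = 4.19e-05). Micu3, a regulator of the mitochondrial calcium uniporter, was at 3.99, 2.79 and 5.93 CPM after infarction and 14.4, 17.9 and 23.2 CPM after sham surgery (log2 fold change -2.15 ± 0.36 (SE), adjusted p = 0.000453). Ccl24, a chemokine that attracts eosinophils, was at 4.10, 5.88 and 2.46 CPM after infarction and 21.1, 23.5 and 17.5 CPM after sham surgery (log2 fold change -2.29 ± 0.37 (SE), adjusted p = 0.000400). The groups of these genes do not overlap because the genes were chosen so.

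The infarction response of control mice, measured in 6 other libraries, called fewer genes: 10 higher (0.0878%) and 113 lower (0.992%). Of the 861 genes higher in Salv cKO RNA, 730 had a positive log2 fold change in control RNA, with a median of 0.30, and 7 passed there as higher. Of the 1208 lower genes 1069 were negative in control RNA, with a median of -0.43, and 93 passed as lower. The groups did not overlap in 19.1% of genes in control RNA, against 35.6% in Salv cKO RNA. Across the 11393 genes the 2 responses had a Pearson correlation of 0.458 and a Spearman correlation of 0.453. The responses share no library, but all libraries share 1 scaling and fit, and genes are not independent replicates. The control response had a Spearman correlation of 0.283 with GC content and of -0.139 with exonic length over 11331 genes. For the Salv cKO response these were -0.0079 and 0.022. The part of GC content and length in the comparison of the 2 responses was not tested. The test of the difference between the responses called no gene by edgeR, with 1435 genes at an unadjusted p below 0.05 and a smallest adjusted p of 0.0796. DESeq2 called 75 genes. The change of Ryr2 was -0.99 ± 0.34 in control mice, and the difference of responses was -1.13 (adjusted p = 0.366). Gapdh changed by 0.17 ± 0.17 in control mice, with a difference of 1.28 (adjusted p = 0.0796), and Ndufa3 by -0.14 ± 0.17, with a difference of -1.23 (adjusted p = 0.0861). Slc4a4, Capn15, Ppargc1b, Gsk3b and Tcf7l2 passed as lower in control mice as well, each with an adjusted p of 0.0391. Yap1 was higher by 0.73 ± 0.25 there without passing (adjusted p = 0.164), and its difference of responses was 0.52 (adjusted p = 0.573). No gene is therefore called particular to the Salv cKO response.

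**Figure D4:**
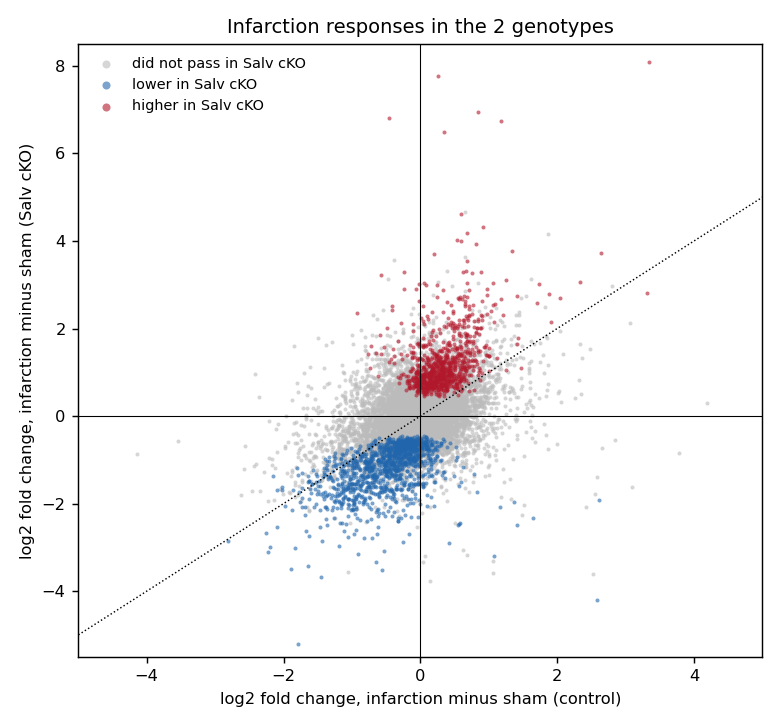
Each point is a gene, with its log2 fold change between infarction and sham in control mice on the horizontal axis and in Salv cKO mice on the vertical axis, coloured by its call in Salv cKO mice, and the dotted line marks equal change. Most red points lie to the right of 0 and most blue points to the left of it (730 of 861 and 1069 of 1208), and 3 genes outside the axes are not drawn.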

How the data were processed

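The authors deposited whole-number counts of reads per gene symbol for 18 libraries, 12 of TRAP RNA and 6 of total heart RNA, and the 12 TRAP libraries were used. Per the submitters' processing notes, STAR 2.5, DESeq2 and the build mm10 were used. No source used here names the counting program, its use of strand or its handling of reads with several matches. Libraries were grouped by genotype and surgery as labelled, 3 a group, with 3240871 to 7932292 counts in the 6 Salv cKO libraries.

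Genes were kept by edgeR's filterByExpr, scaled by TMM and fitted with edgeR 4.0.16 (robust quasi-likelihood, R 4.3.3) over the 12 TRAP libraries with 1 coefficient a group. The contrasts were infarction minus sham in Salv cKO mice and the difference between that response and the one of control mice. Tests were two-sided, with Benjamini-Hochberg adjustment over all 11393 genes and a threshold of 0.05. Standard errors came from the fit, and CPM were TMM-scaled. On counts simulated for this comparison (11393 genes), 36% of genes changed 2-fold and 84% of genes changed 4-fold were recovered, with 4% false among 125 called. The simulation changed 100 genes 2-fold and 100 genes 4-fold, in random directions, and gave all other genes the same level in every group. In the data 2069 genes passed, so the 4% need not hold for those calls.

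Genes were placed by GENCODE release M21, which is on GRCm38. Transcripts were searched for near-identical copies (at least 95% identity over at least 200 bases and 50% of the shorter), and counts of copies were added as an alternative. Promoters came from RefSeq (GRCm38.p6). Genes described were 10 given whatever their result, the 15 passing genes that rose most and the 15 that fell most by log2 fold change (mean log2 CPM of at least 3, groups without overlap, no predicted or clone symbols), and up to 4 passing members of each of 47 gene lists with the smallest p. Some genes that this rule selects are not reported here. Other genes were chosen after their values were seen. The members and lists were chosen with earlier results of these data known. 26 alternatives were tried, 24 planned and 2 chosen after seeing the data (library totals without composition scaling, and copies added). Total heart RNA was not used. The level of 3 counts, the limit that a count of 0 allows, covers counting error only, since the counts are of reads.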

Additional observations from a re-analysis of the deposited data

How the results depend on the processing

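With library totals and no composition scaling, chosen after seeing the data, 2256 genes were higher and 630 lower, and 1 gene differed between genotypes in response. 578 of the 1208 lower calls, and 14 of the 170 passing genes named or eligible to be named, did not pass then. Leaving out 1 library at a time gave 427 to 1031 higher, 673 to 1313 lower and 0 to 18 differing genes. The higher count was 560 without infarction Salv cKO replicate 2, 559 without sham Salv cKO replicate 2 and 503 without sham Salv cKO replicate 3, and the lower count was 792 without the last of these. Genes differing in response numbered 75 with DESeq2, 160 without a filter on low counts, 3 in 1 draw at equal depth, 3 with length and GC offsets and 3 with those offsets and the replicate block, against 0. The cause was not tested. Sav1, which did not pass, ranged from -0.19 to 1.58 on the log2 scale over the libraries left out and Ankrd1 from -0.37 to 0.24. Ankrd1 was 0.0010 without the filter, 0.017 without the libraries with Y-linked counts and 0.27 with library totals, and Atp2a2 was 0.11 with library totals. Other count alternatives stayed within 1.5 times of the 861 and 1208 genes, among them DESeq2 with 997 and 1355.

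Replicate numbers were not treated as pairs. Deviations of same-numbered libraries correlated at 0.043, 0.057 and 0.043, each library best with its own number. With the replicate block 855 genes were higher, 1251 lower and 0 differed in response. Of 2069 calls, 817 passed under each of the 24 alternatives chosen at the start. Equal depth in all libraries, 3 draws at 3240871 counts, gave 769 to 849 higher and 1079 to 1144 lower genes.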

Other observations

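Further genes that passed belong to immune, matrix and signalling groups. Of 26 tested genes of antigen presentation and complement 4 rose (15.4%) and 2 fell (7.69%), with a median log2 fold change of 0.26. Of all genes 7.56% rose and 10.6% fell. H2-T23, a nonclassical class I molecule, was at 7.98, 8.36 and 8.59 CPM after infarction and 2.35, 0.993 and 1.03 CPM after sham surgery (log2 fold change 2.52 ± 0.53 (SE), adjusted p = 0.00145). Sham replicates 2 and 3 of H2-T23 were near the limit of detection. C1qa, the first component of the classical pathway, fell from 183, 158 and 152 CPM in the sham libraries to 75.9, 80.8 and 119 CPM in the infarction libraries (log2 fold change -0.84 ± 0.22 (SE), adjusted p = 0.0124), and did not pass without infarction replicate 1 or 2 or with library totals (adjusted p = 0.121). Cxcl12, a chemokine that draws progenitor cells and leukocytes, was at 58.2, 56.7 and 88.6 CPM after infarction and 205, 293 and 402 CPM after sham surgery (log2 fold change -2.15 ± 0.44 (SE), adjusted p = 0.0105), with an adjusted p of 0.0542 without infarction replicate 1. Tnfrsf12a, the receptor of the cytokine TWEAK, rose from 18.8, 3.31 and 7.47 CPM in the sham libraries to 67, 28.2 and 37.6 CPM in the infarction libraries (log2 fold change 2.19 ± 0.58 (SE), adjusted p = 0.0264), with an adjusted p of up to 0.11 when single Salv cKO libraries were left out. Dkk3, a secreted relative of Wnt inhibitors, was at 24.3, 14.7 and 19 CPM after infarction and 2.01, 3.64 and 1.55 CPM after sham surgery (log2 fold change 3.03 ± 0.93 (SE), adjusted p = 0.0403), and did not pass when any one Salv cKO library was left out (adjusted p up to 0.15).

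Among the genes that fell most were also Wdr70, a WD-repeat protein, at 5.65, 7.12 and 10.6 CPM after infarction and 37.2, 26.1 and 54.4 CPM after sham surgery (log2 fold change -2.36 ± 0.36 (SE), adjusted p = 0.000449), and Hmgxb4, an HMG-box protein, at 7.87, 4.80 and 14.3 CPM after infarction and 46.9, 25.1 and 55.4 CPM after sham surgery (log2 fold change -2.27 ± 0.41 (SE), adjusted p = 0.00218). Cradd, an adaptor of caspase 2, was at 35.1, 31 and 54.8 CPM after infarction and 133, 197 and 205 CPM after sham surgery (log2 fold change -2.15 ± 0.28 (SE), adjusted p = 0.000221). Hmcn2, a hemicentin of the matrix, was at 3.10, 2.63 and 5.52 CPM after infarction and 16.1, 19.2 and 14.7 CPM after sham surgery (log2 fold change -2.17 ± 0.34 (SE), adjusted p = 0.000317). Frg1, which encodes a nuclear RNA-associated protein, fell (log2 fold change -2.84 ± 0.70 (SE), adjusted p = 0.0268) and did not pass without infarction replicate 1 or 2 or sham replicate 1 or 3 (adjusted p up to 0.106). In the list of amino acid and ketone catabolism 3 of 23 were higher and 3 lower, 13% each, beside 7.56% and 10.6% of all genes. Oxct1, which activates ketone bodies for use as fuel, was at 1568, 1783 and 2664 CPM after infarction and 3597, 3820.2 and 4908 CPM after sham surgery (log2 fold change -1.03 ± 0.19 (SE), adjusted p = 0.00110). Hibadh, an enzyme of valine breakdown, was at 74.1, 112 and 68.5 CPM after infarction and 35.2, 28.5 and 33 CPM after sham surgery (log2 fold change 1.40 ± 0.23 (SE), adjusted p = 0.000361).

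Among 32 cardiac transcription factors 3 rose and 3 fell, 9.38% each, beside 7.56% and 10.6% of all genes. Hopx, a homeodomain-only cofactor of serum response factor, was at 415, 476 and 400.4 CPM after infarction and 289, 194 and 211 CPM after sham surgery (log2 fold change 0.90 ± 0.23 (SE), adjusted p = 0.0134), with an adjusted p of up to 0.0666 when single Salv cKO libraries were left out. Tox3, an HMG-box factor, was at 5.21, 1.70 and 5.52 CPM after infarction and 16.8, 15.2 and 20.4 CPM after sham surgery (log2 fold change -2.07 ± 0.39 (SE), adjusted p = 0.00128). Of 8 tested nuclear noncoding RNAs 1 rose, Tug1, at 7.75, 5.42 and 5.52 CPM after infarction and 1.68, 1.65 and 0 CPM after sham surgery (log2 fold change 2.57 ± 0.65 (SE), adjusted p = 0.00587), whose exons overlap Morc2a, and none was counted in sham replicate 3. Of 19 circadian clock genes 1 rose, Csnk1d, and 1 fell, Rora. Csnk1d did not pass without infarction replicate 2 or sham replicate 3 (adjusted p up to 0.0581). Rora did not pass without infarction replicate 1 or 2 or sham replicate 2 (adjusted p up to 0.0878). Epicardial, Schwann cell and erythroid markers had no gene past the threshold of 9, 6 and 4 tested by edgeR. Of 16 mural and smooth muscle markers 1 rose, Pdgfrb, a growth factor receptor of pericytes, at 16.6, 22.6 and 18.8 CPM after infarction and 5.03, 7.28 and 12.9 CPM after sham surgery (log2 fold change 1.18 ± 0.30 (SE), adjusted p = 0.00949), and 2 fell, while with library totals 6 were higher and none lower. Both tested adipocyte markers, Cfd and Car3, passed as lower, with sham replicate 2 the highest library of each. Car3 was at 5.98, 0.929 and 2.25 CPM after infarction and 5.70, 39.7 and 8.24 CPM after sham surgery (log2 fold change -2.47 ± 0.77 (SE), adjusted p = 0.0475) and did not pass without sham replicate 2 (adjusted p up to 0.235 over the libraries left out).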
